A study of Mus musculus with 79 samples.

Results

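The nuclear genes of oxidative phosphorylation (OXPHOS) were described across liver, kidney and lung of mice that breathed normal or low oxygen at different times of day. The rule took members by gene symbol alone, with no measured value used: symbols of the form Nduf with a, b, c, s or v and a number, the 4 Sdh subunit genes, every symbol that starts with Uqcr or Atp5, Cyc1, and the Cox genes numbered 4 to 8 that carry an isoform letter. The gene set itself was chosen with earlier results of these data known. Assembly factors of the Ndufaf series were left out. The rule found 81 of the 15198 symbols in the series: 34 of complex I, 4 of complex II, 9 of complex III, 16 of complex IV and 15 of complex V. The remaining 3 match by name only: Cox7a2l, a factor of respiratory supercomplexes, Atp5s, a coupling factor of the ATP synthase, and Atp5sl, now named Dmac2, which takes part in complex I assembly. They lie on 19 chromosomes, with 9 on chromosome 7, the most for any chromosome. In mm10, the build the submitters used, the genes described most below lie as follows in the GENCODE annotation: Cox8a at chr19:7215153-7217616, Ndufc1 at chr3:51404677-51408988, Sdhc at chr1:171127165-171150603 and Atp5g3 at chr2:73908447-73911326 on the minus strand, and Cyc1 at chr15:76343523-76346260 on the plus strand.

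Complex I takes electrons from NADH and complex II from succinate, complex III passes them to cytochrome c, and complex IV reduces oxygen to water. The protons pumped on the way drive complex V, the ATP synthase. Kidney tubules and hepatocytes are rich in mitochondria, and muscle and brown fat carry isoforms of their own for complex IV (Cox6a2, Cox7a1, Cox8b). Under hypoxia, hypoxia-inducible factor (HIF) is known to raise Cox4i2 and other genes that retune respiration. The subunits encoded by mitochondrial DNA were not analysed here.

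All mice were C57BL/6 and 3 months old. They spent 4 h in a sealed cage under a flow of 6% O2 in nitrogen or of 21% O2 (synthetic air, called air here), and tissues were frozen at once. In the light-dark regimen (LD, 12 h light), wild-type (WT) mice were exposed at zeitgeber time ZT4-8, in the light, or ZT16-20, in the dark, and 3 tissues (liver, kidney and lung) of each of 16 mice gave 48 libraries. In the constant-dark regimen (DD, 2 days in darkness), liver came from WT and from Per1,2 double knock-out (KO) mice, which lack a pair of core clock genes, at the matching circadian times CT4-8 and CT16-20. Each of the 20 groups held 4 mice, named A to D here, except KO at CT16-20 and 6% O2 with 3. Per1 ranged from 16.6 to 86.8 CPM in WT and from 14.1 to 35.2 CPM in KO libraries, and Per2 from 2.82 to 28.1 and from 4.45 to 32.2 CPM (counts per 1000000 of the library total). The labels do not say which parts of the genes were deleted, so these counts over whole genes do not check the genotype. WT and KO came in separate tables, so table and genotype cannot be told apart.

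Of the 81 members, 74 could be tested in each liver table, 79 in kidney and 78 in lung. The rest were too low or not analysed here: Cox4i2, Cox6a2, Cox6b2, Cox8b, Atp5g2, Uqcrb and Ndufa11 in the liver tables, Cox4i2 and Ndufa11 in kidney, and Atp5g2, Uqcrb and Ndufa11 in lung. Libraries held 1443279 to 6744476 counted reads (median 3016455). Levels are given as counts per 1000000 counts of the scaled library (CPM), and they are compared between samples, not between genes. A gene is called changed where edgeR's quasi-likelihood test gives a Benjamini-Hochberg adjusted p under 0.05 over all genes tested in that table. The share of all genes called stands beside each count of members, as the background against which that count is read. It is the share called by edgeR at an adjusted p under 0.05. Counts at an unadjusted p or by DESeq2 have no matching share of all genes here, and this background does not apply to them. In whole tissue, fewer cells of a type and less RNA per cell cannot be told apart.

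The start regions of many of these genes carry motifs of the factors known to drive nuclear respiratory genes. RefSeq promoters (build GRCm38.p6, from 250 bases before to 50 after the start) were available for 67 members and 27025 genes in all, and both strands were searched. The NRF1 motif GCGCATGC was in 10 members (14.9%) and in 3.05% of all genes. The ETS motif CCGGAAG, bound by GABP, was in 16 members (23.9%) against 9.93%. The YY1 motif AAGATGGC was in 11 members (16.4%) against 3.19%, and the ERR motif TCAAGGTCA in 2 (2.99%) against 0.466%. The HIF motif ACGTGC was in 4 members (5.97%) against 6.68%, and the E-box CACGTG, the clock factors' motif, in 7 (10.4%) against 8.09%; the E-box can overlap the HIF motif by 5 bases. Below are the 120 bases before the start, 5′ to 3′ on the gene's strand, of a gene for each of the motifs NRF1, ERR, ETS with YY1. They are members whose levels are reported further on, and capitals mark the motif on either strand (RefSeq, GRCm38.p6).
Sdhb, chr4:140961151-140961270, + strand, NRF1 motif: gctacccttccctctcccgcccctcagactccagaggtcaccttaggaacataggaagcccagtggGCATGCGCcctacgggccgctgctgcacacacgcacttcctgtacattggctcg
Atp5g3, chr2:73911327-73911446, - strand, ERR motif: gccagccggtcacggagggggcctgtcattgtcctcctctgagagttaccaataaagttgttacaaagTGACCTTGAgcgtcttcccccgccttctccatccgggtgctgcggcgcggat
Atp5j, chr16:84834977-84835096, - strand, YY1 then ETS motif: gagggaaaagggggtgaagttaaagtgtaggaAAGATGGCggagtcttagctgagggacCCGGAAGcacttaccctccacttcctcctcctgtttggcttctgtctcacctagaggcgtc

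Several libraries stood apart, and results that rest on them are given with and without them. The air libraries B and D of kidney at ZT4-8 and library A of WT liver at CT4-8 in air were all more than 2-fold below their table's median in the same 7 members: Cox6c, Cox7a2, Cox7b, Ndufa5, Ndufb3, Ndufs4 and Uqcrh. Kidney Cox7b, a small complex IV subunit, was at 514.5, 74.2, 413.9 and 70.1 CPM in the ZT4-8 air mice A to D, while the other 12 kidney libraries lay between 388.5 and 563.8 CPM. Cox6c was at 735.4, 146.6, 1234 and 103.0 CPM in the same mice. The drop was not limited to OXPHOS: among genes of at least 50 CPM, 124 and 140 of 3295 were 2-fold low in the kidney pair, and 290 of 2303 in the liver library. Across genes, which are not independent replicates, the deviation of these libraries correlated with the GC content of the transcript (r = 0.267 and 0.321 over 3162 genes in kidney, 0.466 over 2218 in liver). Other kidney libraries deviated with GC content too, from r = -0.354 (air C of ZT4-8) to 0.269 (6% C of ZT16-20), and the other WT liver libraries in darkness lay between -0.234 and 0.124. The genes 2-fold low had a median GC of 46.7% and 46.3% in the kidney pair, against 51.9% for all, and 47.3% against 52.5% in the liver library. The part of base composition in these levels was not tested.

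In KO liver, the 3 libraries with the most neutrophil RNA (5 markers summed to 62.9 and 77.6 CPM in CT4-8 6% A and D and to 97.5 CPM in CT16-20 air C) had the lowest OXPHOS shares of their table (2.34%, 2.24% and 2.20% of counts, against 2.59% to 3.24% in the other 12, where the markers summed to 4.43 to 29.9 CPM). In lung, the air libraries ZT4-8 B and C and ZT16-20 D held skeletal muscle RNA: the sum of 11 muscle markers reached 2786, 2903 and 2786 CPM, against 23.5 to 121.0 CPM in the other 13. The 7 brown fat markers counted other than Cox8b summed to 1289, 412.6 and 838.7 CPM in the ZT16-20 libraries air A, 6% A and 6% B, and to between 29.1 and 378.5 CPM elsewhere in lung. The 11 cardiac markers summed to 1088 to 3126 CPM over all lung libraries. The 7 endothelial markers summed to 1927 to 2622 CPM in the 8 air libraries and to 2644 to 4516 CPM in the 8 libraries at 6% O2, with no overlap. The tissues otherwise carried their own markers. Hepatocyte markers summed to at least 75040 CPM in every liver library, proximal tubule markers to at least 8922 CPM in kidney and alveolar markers to at least 38500 CPM in lung.

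Kidney held the most OXPHOS RNA and lung the least. All members together took 7.16% to 7.78% of the counts in the kidney group means, 2.98% to 3.24% in LD liver and 1.94% to 2.18% in lung. In air, 75 of the 76 members tested in all 3 tissues were lower in lung than in kidney (background: 75.5% of all genes called, 36.8% called lower). The median log2 difference of the members was -2.02, beside 0.04 for all genes tested. Liver was above lung in 72 members and below it in 1 (background: 78.8%, and 38.3% called higher), with a median of 1.80 beside -0.05. Between liver and kidney, 34 members were lower and 3 higher in liver (background: 65.9%, and 33.3% called lower), with a median of -0.18 beside -0.01.

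The fall from kidney to lung ran through every complex, as the plot of tissue differences by complex shows. The median log2 difference was -1.88 over 33 complex I genes, -2.50 over the 4 complex II genes, -2.22 over 9 of complex III, -2.09 over 12 of complex IV and -1.93 over 15 of complex V. Cox8a, a small subunit of complex IV, was at 352.4, 590.7 and 629.4 CPM (lowest, median and highest of 8 air libraries) in kidney, at 173.5, 246.3 and 295.8 CPM in liver and at 37.1, 48.3 and 72.5 CPM in lung. The ranges of the 3 tissues did not overlap. Its log2 difference of lung from kidney was the largest of the members (-3.43, SE 0.14, adjusted p = 1.44e-22). Uqcrfs1, the Rieske iron-sulfur protein of complex III, had medians of 1340.5, 926.9 and 146.8 CPM in kidney, liver and lung, and lung was again below the lowest library of the others. Its difference of lung from kidney was -3.10 (SE 0.10, adjusted p = 1.69e-26).

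**Figure D1:**
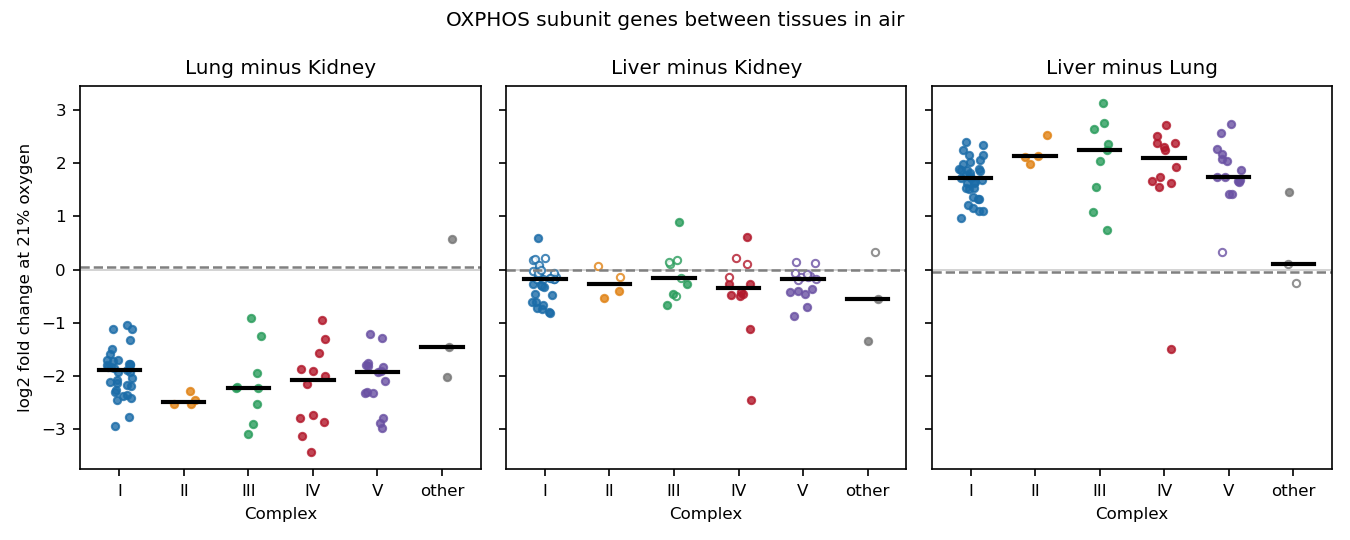
Log2 fold change of each OXPHOS subunit gene between tissues in air (vertical axis), by complex (horizontal axis), from a fit over 48 libraries; filled points passed an adjusted p of 0.05, black bars are medians and the dashed line is the median of all genes tested. All points of complexes I to V lie below 0 for lung minus kidney, and liver minus kidney is spread around a median of -0.18.

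Other members of each complex differed in the same direction. Of the 4 complex II genes, which oxidise succinate in the citrate cycle as well, Sdha differed between lung and kidney by -2.28 (SE 0.09), Sdhb by -2.54 (SE 0.10), Sdhc by -2.54 (SE 0.10) and Sdhd by -2.46 (SE 0.11). Ndufs1, the large iron-sulfur subunit of complex I, differed by -2.30 (SE 0.10) and Ndufv2, its neighbour in the NADH-binding module, by -1.50 (SE 0.11). Cyc1, cytochrome c1, differed by -2.92 (SE 0.13). In complex IV, Cox5a (-3.13) and Cox5b (-2.88), next to the catalytic core, and Cox4i1 (-2.74) differed more than Cox6a1 (-2.01) and Ndufa4 (-2.16), an accessory subunit named for complex I. Ndufb6 (-2.95, adjusted p = 2.55e-27) had the smallest p of all members. In the ATP synthase, the catalytic Atp5b differed by -2.80 (SE 0.11) and Atp5a1 by -2.31 (SE 0.10). The c-ring protein is encoded by 3 genes: Atp5g1 differed by -2.89 and Atp5g3 by -2.99, while Atp5g2, at 0.62 to 1.94 CPM in lung, differed by -1.21 (SE 0.36). The smallest differences were those of Uqcrh, the hinge protein of complex III (-0.91, SE 0.16), and of Cox7a1 (-0.95, SE 0.26). Uqcrh stood at -1.18 without the mice of the kidney air libraries B and D, left out in all tissues. Cox7a2l was the 1 member higher in lung than in kidney (0.57, SE 0.18, adjusted p = 0.00434). It lost that call without those mice (0.50, adjusted p = 0.0515). It also lost it without the mice of the 3 lung libraries with skeletal muscle RNA (0.31, adjusted p = 0.106).

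Liver had its own pattern within complexes III and IV. Uqcrq, a subunit of complex III next to cytochrome b, was at 2147.7 to 3286.5 CPM in the 8 liver air libraries and at 1216.5 to 1460.6 CPM in kidney, with no overlap. It was the member that differed most from kidney in the upward direction (0.90, SE 0.12, adjusted p = 2.57e-08), and its difference from lung, 3.13 (SE 0.13), was the largest of any member. Cox7a1, the heart and muscle isoform of subunit VIIa, was at 13.9 to 22.2 CPM in liver against 66.8 to 115.0 CPM in kidney (-2.45, SE 0.29, adjusted p = 3.49e-08). It was also the 1 member lower in liver than in lung (-1.50, SE 0.30). Its ubiquitous partner Cox7a2 differed by 0.10 (SE 0.22, adjusted p = 0.717) between liver and kidney. Without the mice of the kidney air libraries B and D, Cox7a2 differed by -0.41 (adjusted p = 0.0318). Atp5s (-1.35), Cox8a (-1.13), Ndufb8 (-0.81) and Ndufc2 (-0.74), accessory subunits of the membrane arm of complex I, Atp5b (-0.71) and Ndufb6 (-0.61) were lower in liver. Cox7b (0.62, adjusted p = 0.0431) and Ndufs4 (0.59, adjusted p = 0.00182) were called higher in liver, and both are among the 7 members low in the kidney air libraries B and D. Without the mice of these libraries, left out in all tissues, Cox7b was at 0.03 (adjusted p = 0.888) and Ndufs4 at 0.18 (adjusted p = 0.238). Uqcrq was then at 0.90 (adjusted p = 3.78e-06).

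Between liver and kidney the sign of single members depended on the scaling, while the median of the members was below 0 under both. With library totals alone, in which very abundant liver transcripts weigh on every other gene, the median of all genes moved to -0.99, and 74 members were lower and 0 higher in liver. Relative to the median of all genes, the members stood at -0.18 for liver minus kidney under both scalings. They stood at -2.06 for lung minus kidney and at 1.85 for liver minus lung, again under both. A change of scaling shifts all genes of a library alike, so this equality is built in and tests nothing about the tissues. Without the mice of the kidney air libraries B and D, left out in all tissues, 40 members were lower and 2 higher in liver than in kidney. Under library totals alone Uqcrq itself stood at -0.08 (adjusted p = 0.495).

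The muscle and brown fat isoforms of complex IV in lung followed marker genes of brown fat or cardiac muscle, library by library. Cox8b, the isoform of subunit VIII in brown fat and striated muscle, was at 30.3, 70.8, 70.1 and 35.3 CPM in lung at ZT4-8 in air and at 298.3, 25.4, 26.1 and 136.9 CPM at ZT16-20 in air. At 6% O2 it was at 29.8, 80.6, 19.6 and 121.8 CPM (ZT4-8) and 200.7, 380.5, 44.9 and 38.1 CPM (ZT16-20). The groups overlapped, and the 3 libraries above 200 CPM are those with the most brown fat RNA. Over the 16 lung libraries Cox8b correlated with the summed brown fat markers other than itself (Pearson r = 0.978, Spearman rho = 0.994, permutation p adjusted over 8 such relations 4e-05 for each, from an unadjusted p of 1e-05, the smallest these resamples can give). The correlation was 0.970 without the 2 farthest libraries and 0.979 for deviations within groups.

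Cox7a1 gave r = 0.930 (rho = 0.903, adjusted permutation p = 4e-05 for each) with brown fat markers and 0.843 (rho = 0.847) with cardiac markers. Cox6a2, the heart and skeletal muscle isoform of subunit VIa, gave r = 0.816 (rho = 0.800, adjusted permutation p = 0.000224 and 0.000592) with cardiac and 0.643 (rho = 0.682) with brown fat markers. The last of these fell to 0.418 without the 2 farthest libraries, so it rests on them. In kidney, Cox8b gave r = 0.723 (rho = 0.791, adjusted permutation p = 0.00259 and 0.000627) with brown fat markers, and Cox7a1 gave r = -0.113 (adjusted permutation p = 0.673). None of the 3 isoforms was called for oxygen or for time of day in lung or kidney. Relations of the isoforms to skeletal muscle markers were not computed. The brown fat and cardiac sums were both highest in the lung ZT16-20 libraries air A (1289 and 3126 CPM) and 6% B (838.7 and 3110 CPM). The marker lists are shared by neighbouring tissues, and their part in the isoform levels was not tested.

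**Figure D2:**
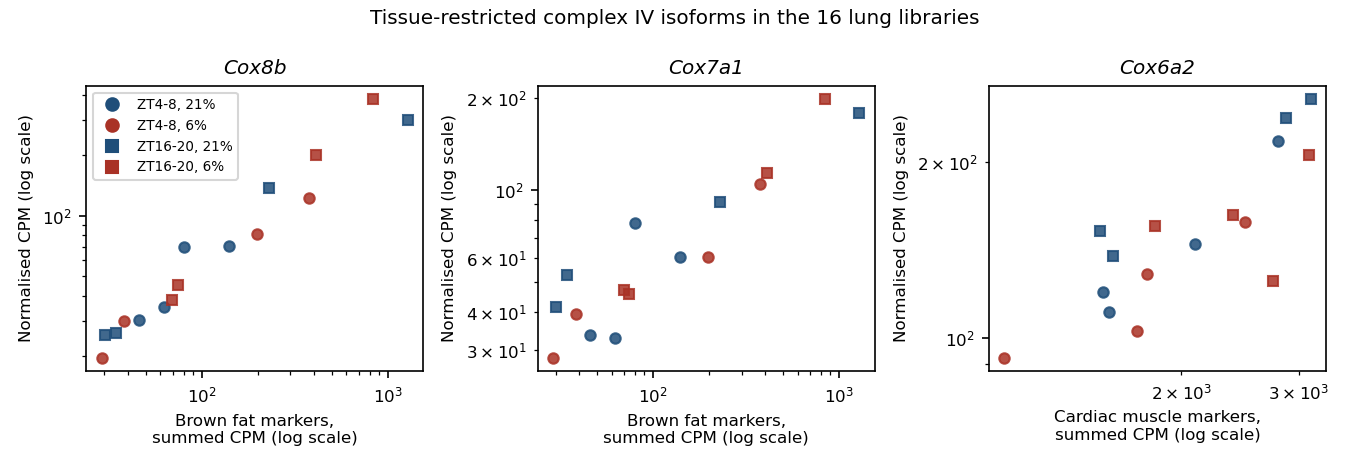
Level of Cox8b, Cox7a1 and Cox6a2 in each of the 16 lung libraries (vertical axes, normalised CPM, log scale) against the summed CPM of brown fat or cardiac muscle markers (horizontal axes, log scale); circles are ZT4-8, squares ZT16-20, blue air and red 6% O2. Cox8b runs from 19.6 to 380.5 CPM and rises with the brown fat sum (r = 0.978 over all 16), with both oxygen levels and times spread along the trend.

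After 4 h at 6% O2 most members stayed close to their air level, and those called fell in liver at ZT16-20 and mostly rose in lung. Counted in both directions, the share of members called was below the background in all 10 settings of tissue, regimen, genotype and time. Counted as lower only, it was above it in LD liver at ZT16-20 and in WT DD liver at CT4-8. In LD liver at ZT4-8, edgeR called 0 of 74 members (background: 9.64%), with 2 at an unadjusted p under 0.05 and 1 called by DESeq2. In kidney it called 0 of 79 at either time (background: 5.28% at ZT4-8 and 6.9% at ZT16-20), with 5 members at an unadjusted p under 0.05 and 1 called by DESeq2 at each.

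**Figure D3:**
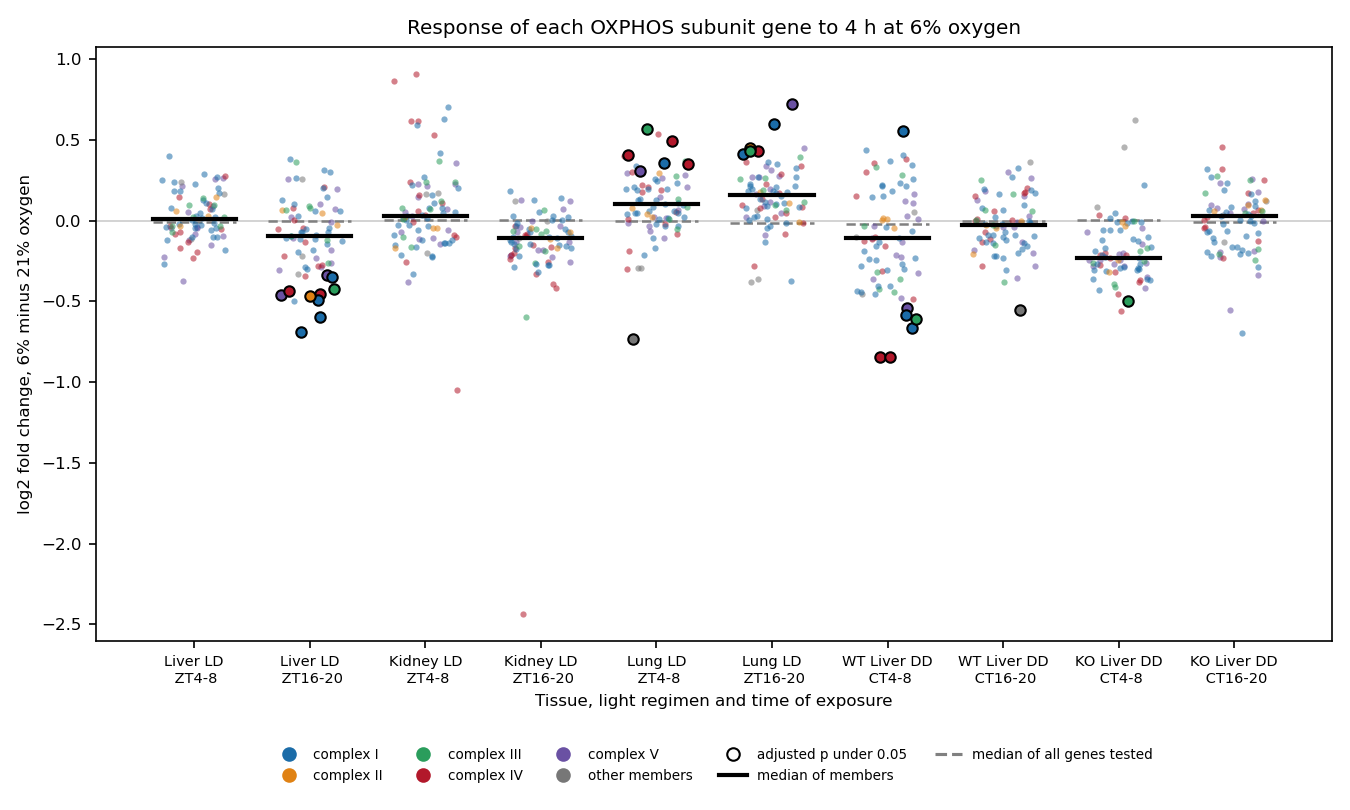
Log2 fold change at 6% against 21% O2 (vertical axis) of every tested member in the 10 settings of tissue, light regimen and time (horizontal axis), coloured by complex; black outlines mark an adjusted p under 0.05, black bars the median of the members and grey dashes the median of all genes tested. The called members lie below 0 in LD liver at ZT16-20 and, but for Atp5sl, above 0 in lung.

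In LD liver at ZT16-20, 10 of 74 members fell and 0 rose (background: 20.3% of all genes, 10.3% called lower). The median log2 change was -0.09 for the members and -0.00 for all genes. By role they were Ndufa1 and Ndufc1 of the proximal membrane arm of complex I, Ndufb3 and Ndufb6 of its distal arm, the membrane anchor Sdhc of complex II, Cyc1 of complex III, Cox5a and Cox7c of complex IV, and Atp5h and Atp5k of the ATP synthase. Ndufc1 was at 117.9, 142.9, 199.1 and 137.9 CPM in air and at 92.6, 81.5, 86.2 and 110.3 CPM at 6% O2. Every air library lay above every 6% library. Its change was -0.69 (SE 0.14, adjusted p = 0.0014).

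Sdhc was at 515.3, 538.3, 707.0 and 513.5 CPM in air and at 403.7, 420.0, 400.1 and 420.0 CPM at 6% O2 (-0.47, SE 0.11, adjusted p = 0.00474). Air mouse C was the highest, and the groups did not overlap. Ndufa1, an X-linked subunit needed for complex I assembly, was at 358.6, 366.1, 445.5 and 403.6 CPM in air and at 258.0, 313.8, 279.3 and 268.6 CPM at 6% O2 (-0.49, SE 0.11, adjusted p = 0.00239), again without overlap. Ndufb3 was at 120.5, 113.7, 129.4 and 96.0 CPM in air and at 71.1, 70.9, 84.8 and 77.4 CPM at 6% O2 (-0.60, SE 0.16, adjusted p = 0.0112). The lowest air library lay above the highest at 6% O2. These 4 genes were called under each of the 14 other settings and left-out libraries tried. The other 6 fell by 0.34 to 0.46 on the log2 scale: Atp5h (-0.34), Ndufb6 (-0.35), Cyc1 (-0.43), Cox5a (-0.44), Cox7c (-0.45) and Atp5k (-0.46). Cox5a was called in 3 of the 14, and the count fell to 6 without the 6% library A or D.

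At ZT4-8 these genes were not called. Ndufc1 was at 88.2, 94.8, 108.1 and 92.3 CPM in air and at 94.8, 86.1, 92.0 and 83.8 CPM at 6% O2, and Sdhc at 402.3, 411.0, 408.9 and 400.8 CPM in air and at 373.3, 416.3, 389.2 and 410.4 CPM at 6% O2. Both pairs of groups overlapped. The difference between the 2 responses was not called for any of the 74 members (background: 2.06%; 9 at an unadjusted p under 0.05, 0 by DESeq2), so a response particular to ZT16-20 is not shown.

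A few liver OXPHOS transcripts were also called for time of day. In air, 6 of 74 members were higher at ZT16-20 than at ZT4-8 and 0 lower (background: 5.91%, and 3.24% called higher), with a median log2 difference of 0.22 beside -0.01 for all genes, and 31 members at an unadjusted p under 0.05, all higher. The count at an unadjusted p has no matching share of all genes beside it. This comparison uses the same ZT16-20 air libraries as the oxygen comparison above. Cyc1 was at 403.2, 453.6, 357.6 and 324.6 CPM at ZT4-8 and at 509.8, 540.5, 713.9 and 639.7 CPM at ZT16-20 in air, without overlap (0.64, SE 0.13, adjusted p = 0.00483). At 6% O2 and ZT16-20 it was at 498.4, 430.7, 476.9 and 384.7 CPM. Ndufc1 (0.64, SE 0.14, adjusted p = 0.00792), Sdhc (0.49, SE 0.11, adjusted p = 0.0107) and Ndufb6 (0.34, adjusted p up to 0.205 in other settings) were higher at ZT16-20 too, along with Ndufa12 (0.55), an accessory subunit of the NADH module, and Ndufv3 (0.41), which sits beside the flavin site. Cyc1 and Ndufc1 were called in all 14 other settings and left-out libraries, Sdhc in 13, Ndufv3 in 9, Ndufa12 in 6 and Ndufb6 in 2, with Ndufb6 in 0 of the 8 fits that left out a library. The count was 3 without the air library A of ZT4-8 or B, C or D of ZT16-20, and 3 with library totals alone.

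**Figure D4:**
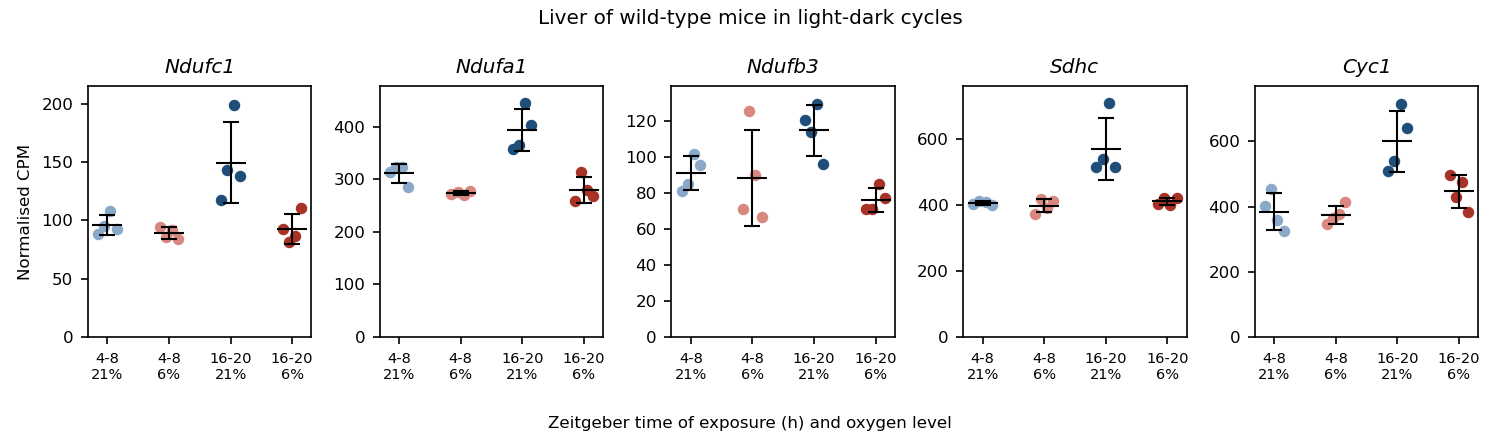
Normalised CPM (vertical axes, from 0) of 5 members in LD liver by zeitgeber time and oxygen level (horizontal axis); points are libraries, bars the mean with SD. In each panel the air group at ZT16-20 has the highest mean, and Sdhc at 6% O2 and ZT16-20 spans 400.1 to 420.0 CPM, against 373.3 to 416.3 CPM in the ZT4-8 groups.

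In lung, the called members of the 5 complexes rose. At ZT4-8, 6 of 78 were higher and 1 lower at 6% O2 (background: 22.6%, and 11.2% called higher), and at ZT16-20, 6 were higher and 0 lower (background: 21.1%, and 10.2% called higher). The count of members is below the background at both times. The medians were 0.10 and 0.16, beside -0.00 and -0.01 for all genes. Of 78 members, 60 and 66 had a positive log2 change, with no share of all genes given beside these counts. Without the 3 lung libraries with the most brown fat RNA the medians were 0.10 and 0.09. Without the 3 with skeletal muscle RNA they were 0.16 and 0.19. The OXPHOS shares of the brown fat libraries were 2.545% (air A), 2.245% (6% A) and 2.599% (6% B), all of ZT16-20. The part of these libraries was not tested. Atp5g3 of the c-ring was at 689.3, 725.4, 715.3 and 720.3 CPM in ZT4-8 air and at 880.5, 888.6, 895.5 and 869.8 CPM at 6% O2. The groups were far apart for their spread (0.31, SE 0.10, adjusted p = 0.0217).

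Cox8a was at 67.8, 64.5, 62.1 and 56.8 CPM in ZT4-8 air and at 90.4, 92.4, 82.5 and 89.2 CPM at 6% O2, without overlap (0.50, SE 0.15, adjusted p = 0.0157). Uqcrc2, a core protein of complex III, was at 75.3, 87.4, 56.9 and 85.0 CPM in air and at 88.7, 116.2, 108.6 and 137.9 CPM at 6% O2, without overlap (0.57, SE 0.15, adjusted p = 0.00732). Cox5b (0.41), Ndufb6 (0.36) and Cox4i1 (0.35) rose less and were called in 6 or 7 of 16 other settings and left-out libraries. Atp5sl went the other way, from 35.9, 41.9, 47.5 and 47.0 CPM in air to 28.4, 24.9, 24.3 and 26.4 CPM at 6% O2. Its groups did not overlap, and its fall (-0.73, SE 0.15, adjusted p = 0.00087) was called in all 16. Without the 3 lung air libraries with skeletal muscle RNA, of which 2 belong to this comparison, only Atp5g3 (0.33, adjusted p = 0.0351) and Atp5sl (-0.67, adjusted p = 0.0144) of these 7 stayed called. Cox8a was then at 0.52 (adjusted p = 0.0646) and Uqcrc2 at 0.50 (adjusted p = 0.0551).

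At ZT16-20 the members that rose in lung were Atp5l (0.73), subunit g of the ATP synthase, Ndufa9 (0.60) and Ndufa12 (0.41) of complex I, Sdhb (0.45), Uqcrfs1 (0.43) and Cox5b (0.43). Atp5l was at 8.8, 5.9, 6.8 and 7.5 CPM in air and at 12.1, 11.1, 10.7 and 15.1 CPM at 6% O2, or 10 to 55 reads a library, without overlap (0.73, SE 0.20, adjusted p = 0.0115). It was called in all 16 other settings and left-out libraries. Sdhb, the iron-sulfur subunit of complex II, was at 492.0, 301.3, 323.5 and 372.0 CPM in air and at 534.2, 654.9, 421.3 and 425.2 CPM at 6% O2. The groups overlapped through air mouse A, 1 of the 3 libraries with the most brown fat RNA. Its change was 0.45 (SE 0.14, adjusted p = 0.0274). Without those 3 libraries Sdhb was at 0.34 (adjusted p = 0.103) and Uqcrfs1 at 0.39 (adjusted p = 0.114), while Atp5l (0.90, adjusted p = 0.029) and Ndufa9 (0.70, adjusted p = 0.0171) stayed called. The number called was 17 without air mouse A, 2 without air mouse C and 1 without 6% mouse B. Markers of other cells were higher at 6% O2 as well, without overlap: at ZT16-20 the 6 neutrophil markers summed to 56.3 to 127.8 CPM in air and 244.8 to 441.1 CPM at 6% O2, and the 10 smooth muscle and pericyte markers to 676.5 to 921.3 and 1115 to 1443 CPM, beside the endothelial markers above. Their part in the changes was not tested. Cox4i2, the HIF-linked isoform of Cox4i1 taken from the lung table, was at 14.2, 8.6, 8.9 and 8.2 CPM in ZT4-8 air and at 16.6, 10.0, 10.8 and 15.4 CPM at 6% O2, with overlap (0.40, SE 0.34, adjusted p = 0.442).

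For some members the responses of liver and lung differed by test. Counted in both directions, the share of members called (15.8%) was near that of all genes. In the fit over 3 tissues and both times, the response was lower in liver than in lung for 12 of 76 members and higher for 0 (background: 15.2%, and 8.61% called lower). The members with the smallest p were Atp5l (-0.89, adjusted p = 0.00228), Uqcrfs1 (-0.56, adjusted p = 0.00301), Ndufb6 (-0.50, adjusted p = 0.00302), Cox4i1 (-0.53, adjusted p = 0.00454), Cox5b (-0.51, adjusted p = 0.00838), Ndufa1 (-0.51, adjusted p = 0.0098), Cox5a (-0.59, adjusted p = 0.0117) and Uqcrc2 (-0.44, adjusted p = 0.0152). The first 6 were called under each of 24 other settings, left-out mice and left-out library sets. Between lung and kidney, the response was higher in lung for 9 members and lower for 1, Atp5sl (background: 8.05%, and 4.77% called higher). Cox5b (0.55, adjusted p = 0.00898) and Sdhb (0.53, adjusted p = 0.0100) led, and each was called in 23 of the 24. The others were Cox8a (0.62), Ndufa10 (0.46), Uqcrfs1 (0.45), Uqcrc2 (0.44), Cox4i1 (0.43), Ndufb11 (0.40), Ndufb6 (0.38) and, lower, Atp5sl (-0.39). The count was 2 without the mice of the 3 lung libraries with skeletal muscle RNA. It was 5 without the mice of those with the most brown fat RNA. When 1 mouse was left out it ranged from 3 to 12. It was 3 without mouse A in air or D at 6% O2 of ZT4-8. It was 3 as well without mouse B of ZT16-20, in air or at 6% O2. Liver and kidney responses differed in 0 members (background: 6.43%; 6 at an unadjusted p under 0.05, 0 by DESeq2).

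Few kidney members were called for time or oxygen. The median log2 change with oxygen was 0.03 at ZT4-8 and -0.11 at ZT16-20, where 15 of 79 members had a positive change and none was called. No median of all genes, or share of them with a positive change, is given beside these values. The 2 responses differed in 0 members (background: 0.368%; 4 at an unadjusted p under 0.05, 1 by DESeq2). In air, 1 of 79 differed by time (background: 1.09%): Cox6b2, the testis isoform of subunit VIb, with 3.4, 1.0, 2.0 and 1.7 CPM at ZT4-8 and 6.7, 5.6, 6.9 and 4.0 CPM at ZT16-20 (1.53, SE 0.37, adjusted p = 0.0482). All 4 later libraries were above the earlier ones, but without the kidney air libraries B and D the adjusted p was 0.466, for a change of 1.11. In lung, 0 of 78 differed by time in air (background: 0.979%; 4 at an unadjusted p under 0.05, 0 by DESeq2), and 0 in the response to oxygen by time (background: 0.255%; 1 at an unadjusted p under 0.05, 0 by DESeq2).

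In constant darkness, 6 of 74 members fell in WT liver at 6% O2 and CT4-8, and 1 rose (background: 11.8%, and 6.07% called lower), with a median of -0.11 beside -0.02 for all genes. Cox8a was at 261.2, 173.9, 143.5 and 166.8 CPM in air and at 101.6, 107.8, 104.8 and 99.7 CPM at 6% O2. No libraries overlapped (-0.85, SE 0.18, adjusted p = 0.00342). Cox4i1, the ubiquitous isoform of subunit IV, was at 1825, 910.5, 742.9 and 965.2 CPM in air and at 637.4, 564.6, 620.0 and 649.4 CPM at 6% O2, without overlap but with air mouse A far above the others (-0.85, SE 0.21, adjusted p = 0.011). Air mouse A is the library that stood apart.

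Without it Cox8a was at -0.62 (adjusted p = 0.00458) and Cox4i1 at -0.48 (adjusted p = 0.0236). Ndufs8 (-0.66 with it, -0.52 without), Ndufa13 (-0.58 and -0.43) and Atp5h (-0.54 and -0.62) stayed called, and Uqcrq did not (-0.61 and -0.29, adjusted p = 0.145). Over all 8 fits that each left out 1 library, Cox8a and Cox4i1 were called in 8, Ndufs8 in 7, Ndufa13 in 5, Uqcrq in 3 and Atp5h in 1, the fit without air mouse A. Ndufs3, a core subunit of the quinone module of complex I, was the member that rose: it was at 29.8, 34.3, 31.1 and 27.4 CPM in air and at 45.5, 49.0, 42.3 and 43.5 CPM at 6% O2 (0.56, SE 0.15, adjusted p = 0.0185). At CT16-20, 1 of 74 members was called (background: 9.83%), Atp5sl (-0.56, adjusted p = 0.0459), which fell in lung too, and it was called in 0 of the 8 fits that each left out 1 library. The response of Cox8a differed between the times (1.02, SE 0.25, adjusted p = 0.0392), the 1 member of 74 called (background: 1.62%). That call was lost in 13 of the 16 fits that left out a library (adjusted p up to 0.112) and with the replicate block, and it held without CT4-8 air A (0.79, adjusted p = 0.0286), CT4-8 air C or CT16-20 air C.

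By time in air, 3 of 74 members differed in WT liver in darkness (background: 3.66%). Cox8a (-0.68) and Atp5j (-0.48), a stalk subunit of the ATP synthase, were lower at CT16-20 and Cox7a1 (1.09) higher. Without air mouse A of CT4-8, Cox8a (-0.45, adjusted p = 0.0733) and Atp5j (-0.36, adjusted p = 0.0755) lost their calls and Cox7a1 was at 1.48 (adjusted p = 0.00101). Of the 8 fits that left out a library, Cox8a was called in 3, Cox7a1 in 2 (the other was without CT16-20 air D) and Atp5j in 0. Cyc1 and Ndufc1, higher at ZT16-20 in LD liver, were not called in darkness. The 3 comparisons that use the CT4-8 air group (oxygen, time and genotype) share its 4 libraries.

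KO liver had fewer calls. At CT4-8, 1 of 74 members fell at 6% O2 (background: 5.59%): Uqcr10, a small subunit of complex III, went from 562.7, 586.1, 536.1 and 613.4 CPM in air to 363.5, 421.4, 433.2 and 410.3 CPM at 6% O2, without overlap (-0.50, SE 0.14, adjusted p = 0.0338). It was called in 2 of the 8 fits that left out a library, those without air C or 6% B, and not with the replicate block. The median of the members was -0.23 beside 0.01 for all genes. Of 74 members, 8 had a positive change and 12 were lower at an unadjusted p under 0.05, with no matching shares of all genes here. Without the 3 libraries with the most neutrophil RNA the median was -0.08 and Uqcr10 was at -0.42 (adjusted p = 0.188). The part of neutrophil RNA in these levels was not tested. At CT16-20, 0 members were called (background: 4.51%; 3 at an unadjusted p under 0.05, 0 by DESeq2) and the median was 0.03. Response by time (background: 0.0117%; 6 members at an unadjusted p under 0.05, 1 by DESeq2) and time in air (background: 0.0235%; 9 at an unadjusted p under 0.05, all lower at CT16-20, 2 by DESeq2) gave 0 members each.

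Between genotypes in air at CT4-8, 4 of 74 members differed (background: 4.51%). In the fit over both genotypes Cox8a was at 258.4, 170.4, 143.8 and 164.3 CPM in WT and at 99.0, 135.5, 85.2 and 116.1 CPM in KO. Every KO library was below every WT library (-0.76, SE 0.17, adjusted p = 0.00499; -0.55 and 0.0318 without WT air mouse A). Cox4i1 was at 1805, 892.2, 744.3 and 951.1 CPM in WT and at 592.9, 635.3, 694.6 and 659.7 CPM in KO, without overlap (-0.77, SE 0.18, adjusted p = 0.00918), but without WT air mouse A its adjusted p was 0.0813 at -0.41. Ndufb4 was higher in KO (0.60, adjusted p = 0.0243), and was called in 3 of the 8 fits that left out a library, those without WT A (0.75), KO B or KO D, and Atp5g1 lower (-0.50, adjusted p = 0.0476; -0.34 and 0.179 without it). At CT16-20 in air, 0 of 74 differed (background: 2%), with 28 at an unadjusted p under 0.05, 27 of them lower in KO, and 8 called by DESeq2. That background is for edgeR's adjusted calls and does not apply to the other counts. The median of the members was -0.27, with no median of all genes given beside it. It was -0.23 without the KO libraries with the most neutrophil RNA, of which air C belongs here. Neutrophil markers, 3 of them listed for WT and 5 for KO, summed to 1.80 to 3.88 CPM in WT air and to 8.96 to 97.5 CPM in KO air, and their part was not tested.

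The response to oxygen differed between genotypes at CT4-8 for 1 member (background: 2.42%), Ndufs3. In the fit over both genotypes it was at 29.4, 33.6, 31.2 and 27.0 CPM in WT air, at 45.9, 48.8, 42.3 and 42.8 CPM in WT at 6% O2, at 43.8, 42.8, 47.2 and 46.3 CPM in KO air and at 44.4, 35.3, 32.02 and 33.9 CPM in KO at 6% O2. The WT air group lay below WT at 6% O2 and below KO air without overlap, and it overlapped with KO at 6% O2. The difference of responses was -0.87 (SE 0.25, adjusted p = 0.04995), and under other scalings, no filter, thinned counts, a replicate block or without the KO libraries with the most neutrophil RNA no member was called there, while DESeq2 called 2. Ndufs3 has a near-identical copy in the genome, Gm12251, so its counts are uncertain. At CT16-20 the responses of the genotypes differed in 0 members (background: 0.0444%; 6 at an unadjusted p under 0.05, 0 by DESeq2).

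**Figure D5:**
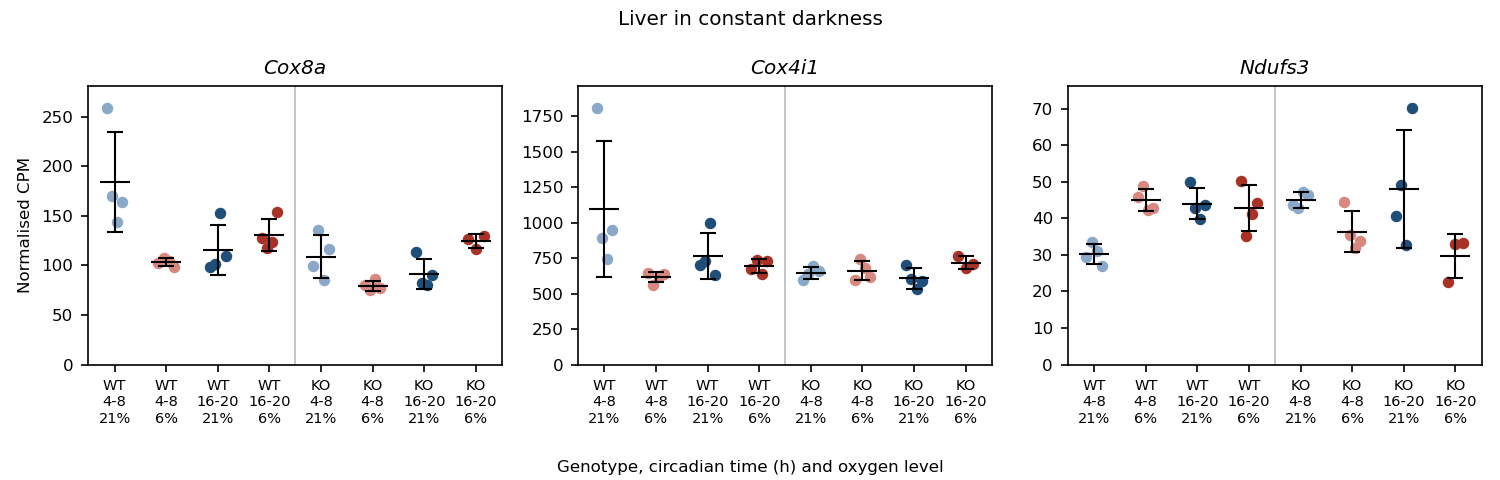
Normalised CPM (vertical axes, from 0) of Cox8a, Cox4i1 and Ndufs3 in liver in constant darkness by genotype, circadian time and oxygen level (horizontal axis); points are libraries, bars the mean with SD, and the grey line separates WT from KO. The WT air group at CT4-8 has the highest mean for Cox8a and Cox4i1, with mouse A at 258.4 and 1805 CPM, and the lowest of the WT groups for Ndufs3.

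Most genes around the respiratory chain were, like the members, lower in lung than in kidney. In air, 13 of 14 citrate cycle genes, 8 of 9 carriers of ATP and phosphate, 37 of 43 assembly factors and 18 of 19 electron carriers and other quinone dehydrogenases were lower in lung than in kidney, and 1 of these genes, an assembly factor, was higher (background: 36.8% of all genes called lower). Their medians were -1.99, -2.12, -1.07 and -1.30. Of 18 regulators of mitochondrial genes, 12 were lower and 2 higher. Among these genes were Suclg1 of the citrate cycle (-3.23), the ATP carrier Slc25a5 (-3.29), the electron transfer flavoprotein Etfa (-3.11) and, among regulators, Esrrg (-5.31) and Ppara (-4.56). Under 6% O2 some HIF-linked respiratory genes rose. In LD liver Egln3, an oxygen-sensing prolyl hydroxylase, rose by 2.03 at ZT4-8 and 1.79 at ZT16-20, and Ldha, lactate dehydrogenase, by 0.60 and 0.64. Bnip3, a mitophagy receptor, rose in lung by 0.97 and 0.89. In all, 2 and 3 of 10 such genes rose in LD liver at the 2 times, 3 and 2 of 12 in lung, 0 and 1 of 12 in kidney, 2 and 3 of 11 in WT and 2 and 1 of 10 in KO liver in darkness, and none fell. The share of all genes called higher was 5.43% and 9.98% in LD liver, 11.2% and 10.2% in lung, 2.79% and 3.44% in kidney, 5.7% and 5.28% in WT and 2.83% and 2.39% in KO liver. The counts of the list were not tested against these shares.

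Among assembly factors, Coa4 fell at 6% O2 in LD liver (-0.89 and -0.90), kidney (-1.21 and -1.10) and lung (-2.01 and -2.04) at both times, and in WT liver at CT4-8 (-1.47). Coa6, a copper chaperone partner of complex IV like Coa4, fell in lung (-0.68 and -0.69) and in kidney at ZT4-8 (-0.37). Ppara, a regulator of fatty acid oxidation, fell in LD liver (-1.48 and -1.14) and in kidney at ZT4-8 (-0.56). Coq10b, a coenzyme Q binding protein, rose in lung by 1.16 and 1.37 and in LD liver at ZT16-20 by 1.17.

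For 16 of the 81 members another annotated gene shares at least 95% identity over 150 bases or more of the last 400 of the transcript, or overlaps it. These include Atp5l, with 10 such genes and 7.28 to 12.3 CPM in the lung group means, Atp5h, Cox7c, Ndufs3, Ndufb6, Ndufb3, Uqcr10 and Uqcrc2. Reads that fit more than 1 gene may have been split or dropped, so the values of these members are uncertain. Within a table the group means of a member rarely spread widely: the median ratio of the highest to the lowest group mean was 1.22 in kidney and 1.29 in WT DD, and between 5 and 11 members a table exceeded 1.5. The widest were Cox8b in kidney (10.57, from 3.32 to 35.1 CPM), Cox8b in lung (3.22), Cox6b2 in kidney (2.84), Cox6a2 in kidney (2.07) and Cox7a1 in WT DD liver (2.04).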

How the data were processed

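RNA of 79 mouse libraries was measured by sequencing of pooled, linearly amplified cDNA, per the labels' protocols. The values are read counts per gene symbol, deposited by the authors in 5 tables (liver, kidney and lung in LD, WT and KO liver in DD). Reads were processed with bcl2fastq, cutadapt, STAR and HTSeq on mm10, per the submitters' processing notes. How reads that fit several genes were counted is not given in the sources used here.

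Counts were scaled by TMM, filtered (filterByExpr, minimum count 10, minimum total 15) and tested with edgeR 4.0.16 (limma 3.58.1, R 4.3.3), robust quasi-likelihood fit, all groups of a table in one model, with Benjamini-Hochberg adjustment over all genes tested and a threshold of 0.05. Tissues were compared in a fit of 48 libraries with the mouse as a block, taking time, oxygen level and letter to mark a mouse, and genotypes in a fit of both DD tables. DESeq2 1.42.0, other scalings, no filter, thinned counts, the replicate block, fits of the compared groups alone and each left-out library were alternatives. Near copies were searched with blastn 2.17.0, and relations between lung isoforms and markers used log2 of CPM plus 1 and 100000 resamples (scipy 1.17.1). The fits were also run on simulated counts, in which no library was made to stand apart. The outcome is not given here, and no call above rests on it.

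Libraries held 1443279 to 6744476 counts. No pair of libraries in a group held identical counts. Same letters within a table gave mean correlations of deviations between -0.07 and -0.02, so the letters were not taken to pair samples within a table. The tissues of a mouse gave 0.03, with 5 of 48 pairs over 0.1, which does not show that a letter marks a mouse. The mouse block of the tissue fits rests on that assumption, and counts without it are given below.

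The members and gene lists were chosen with earlier results of these data known. Named were up to 8 called members with the smallest p in each comparison, marks of each complex, isoforms, up to 4 called genes of each other list and the widest ranges. Further members, among them Atp5k, Ndufa10, Ndufs4, Cox7b, Uqcrh and Cox6b2, were named after their values were seen.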

Additional observations from a re-analysis of the deposited data

Results flagged for a closer look

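In 4 mice of a group, 1 library stood far from the other 3 in 8 of the 127 groups checked, and chance flags about 1 in 20. Of these, 4 were in darkness. WT liver at CT16-20 in air, mouse C, had Cox8a at 155.1 CPM (the others 98.97 to 108.1), Ndufs8 at 273.5 CPM (183.4 to 193.0) and an OXPHOS share of 3.689% of counts (3.147 to 3.164%). At CT4-8 in air, mouse A had a share of 3.72% (3.112 to 3.16%). In LD, Sdhc was at 707 CPM in liver mouse C at ZT16-20 in air (513.5 to 538.3), and Cox6c at 1200 CPM in kidney mouse B at ZT4-8 and 6% O2 (657.4 to 680.0). Kidney mouse A at ZT16-20 and 6% O2 had an OXPHOS share of 7.706% (6.905 to 7.021%), and lung Cox4i2 was at 14.18 CPM in mouse A at ZT4-8 in air (8.248 to 8.913).

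For some members, responses to 6% O2 differed between tissues by the interaction test of edgeR. The log2 response was lower in liver than in lung by -0.89 for Atp5l, -0.59 for Cox5a, -0.56 for Uqcrfs1, -0.53 for Cox4i1, -0.51 for Cox5b and Ndufa1, -0.50 for Ndufb6 and -0.44 for Uqcrc2. It was higher in lung than in kidney by 0.62 for Cox8a, 0.55 for Cox5b, 0.53 for Sdhb, 0.45 for Uqcrfs1, 0.44 for Uqcrc2, 0.43 for Cox4i1 and 0.40 for Ndufb11, and lower by -0.39 for Atp5sl. In WT liver in darkness the response of Cox8a was higher at CT16-20 than at CT4-8 by 1.02 (a call lost in 13 of 16 fits that left out a library), and at CT4-8 that of Ndufs3 was lower in KO than in WT by -0.87. The Ndufs3 call (edgeR adjusted p = 0.04995) was lost under other scalings, no filter, thinned counts and a replicate block. It was also lost without the KO libraries with the most neutrophil RNA.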

How the results depend on the processing

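For the 30 counts of members called, 396 repeats under another setting or without a library stayed within 1.5 times the count reported and 136 did not. With DESeq2 the oxygen count was 1 in liver and kidney at ZT4-8 and in kidney at ZT16-20, and 2 in KO liver at CT4-8. The response by time had 1 in kidney and KO liver and 2 in WT liver in darkness, time in air 14 in LD liver, 6 in WT and 2 in KO liver, genotype 7 at CT4-8 and 8 at CT16-20, and genotype by oxygen 2 at CT4-8. Scaling by library totals alone gave 3 for oxygen in lung at each time, 3 and 0 for time in LD liver and kidney, 6 for genotype at CT16-20, 0 for genotype by oxygen at CT4-8, 74 for liver against kidney and 3 for the oxygen response of lung against kidney. It turned the sign of Cox7a2 (-0.8927), Cox7a2l (-0.6568), Cox7b (-0.3692), Ndufa4 (-0.7603), Ndufs4 (-0.4006), Sdhd (-0.9181), Uqcrh (-0.8011) and Uqcrq (-0.0832) between liver and kidney, and of Atp5g2 (-0.9594) and Uqcrh (-0.217) between liver and lung. Cox7a2 also turned (-0.4051) without the mice of the kidney air libraries B and D. Without these kidney libraries, time in kidney had 0 calls. With the replicate block the counts were 4 for oxygen in lung at ZT4-8, 0 for oxygen in WT liver at CT16-20 and KO liver at CT4-8, 0 for the response by time in WT liver, 0 and 1 for time in kidney and WT liver, and 0 for genotype by oxygen at CT4-8; the letters share only a number, and without the mouse block the tissue counts were 37, 76, 73, 0, 9 and 12. With only the groups compared they were 12 and 1 for oxygen in lung at ZT4-8 and ZT16-20, 2 and 0 in WT and KO liver at CT4-8, and 0 for time in kidney and WT liver. Thinned counts gave 0 for oxygen in WT liver at CT16-20, 1 for genotype at CT16-20 and 0 for genotype by oxygen at CT4-8, and RLE scaling and no filter gave 0 each for the last. Without the lung libraries with skeletal muscle RNA the counts were 2 for oxygen in lung at ZT4-8, 2 for the oxygen response of liver against kidney and 2 of lung against kidney, and without those with the most brown fat RNA 5 for the last and 1 for time in lung. Without the KO libraries with the most neutrophil RNA they were 0 and 1 for oxygen in KO liver at CT4-8 and CT16-20 and 0 for genotype by oxygen at CT4-8. In the tissue comparisons the other tissues of the same mice were left out as well. These left-out sets were chosen after seeing the data. The cause was not tested, except that fewer samples enter where libraries are left out.

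Leaving out 1 library or mouse at a time, the oxygen counts ranged from 6 to 10 in liver at ZT16-20, 0 to 3 and 0 to 1 in kidney at ZT4-8 and ZT16-20, 4 to 6 and 1 to 17 in lung, 3 to 7 and 0 to 0 in WT liver at CT4-8 and CT16-20, and 0 to 3 and 0 to 1 in KO liver. The response by time ranged from 0 to 1 in WT liver. Time in air ranged from 3 to 8 in LD liver, 0 to 6 in kidney, 0 to 1 in lung and 0 to 4 in WT liver. Genotype ranged from 2 to 5 and 0 to 2, genotype by oxygen at CT4-8 from 0 to 1, and the oxygen response of liver against kidney from 0 to 2, of lung against kidney from 3 to 12 and of liver against lung from 8 to 17. Depth limits members under about 10 CPM most, such as Atp5l and Cox6b2.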

Other observations

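Between genotypes in air at CT16-20, where no member was called, the medians of the complexes lay close together. The median log2 difference of KO from WT was -0.34 for complex IV, -0.31 for complex II, -0.28 for complex III, -0.23 for complex I and -0.22 for complex V. Of the members, 8 of 74 had a positive difference. The complexes were not tested against each other, and no matching values for all genes are given beside these. Among the genes around the chain, Coq10b rose with low oxygen in kidney at ZT16-20 (0.65, edgeR adjusted p = 0.00813) and in WT liver in darkness at CT4-8 (0.79, adjusted p = 0.0146) and CT16-20 (0.73, adjusted p = 0.0208), and in KO liver it was at -0.27 (adjusted p = 0.374) and 0.05 (adjusted p = 0.907) at these times. Whether the genotypes differ in this was not tested here. Of the 15 regulators of mitochondrial genes tested in lung, 4 fell and 1 rose at ZT4-8 and 3 fell and 1 rose at ZT16-20 (background: 22.6% and 21.1% of all genes called). Polrmt, the mitochondrial RNA polymerase, fell by 1.02 at ZT4-8 and 0.51 at ZT16-20 on the log2 scale, and Esrra, the ERR alpha receptor, by 0.51 and 0.41, while Nrip1, a corepressor of respiratory genes, rose by 0.98 and 0.58.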
